A study of Mus musculus with 6 samples.

Results

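The DEAD box (Ddx) and DEAH box (Dhx) RNA helicases were followed through a CPEB1 RIP-seq experiment in mouse muscle stem cells. Members were the genes whose symbol begins with Ddx or Dhx and a digit, without Ddx3y and without names that carry a pseudogene suffix. The rule found 53 of the 55376 genes in the count tables, 36 of them Ddx and 17 Dhx. Dhx58os, 1 of the 17, is annotated as an antisense RNA of Dhx58 and encodes no helicase, which leaves 52 helicase genes. All 6 libraries came from muscle stem cells (satellite cells, SCs) of C57BL/6 mice aged 3 months, used soon after sorting and carrying no transgene or deletion according to the labels. There were 2 libraries of RNA pulled down with an anti-CPEB1 antibody (CPEB1 IP), 2 from a control pull-down with IgG, and 2 of input RNA that saw no antibody. RIP-seq sequences the RNA that stays on the antibody beads, so CPEB1 IP against IgG asks which transcripts come down with CPEB1 beyond what the beads and antibody retain. The labels call the replicates biological, and p-values measure only the spread between these libraries.

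Helicases of both classes bind RNA and use ATP to open short duplexes, to move proteins off RNA or to clamp onto it. They are named for a conserved motif, Asp-Glu-Ala-Asp or Asp-Glu-Ala-His, and act at almost every step from transcription and splicing through export, ribosome assembly, translation and decay. CPEB1 is an RNA-binding protein that recognizes the cytoplasmic polyadenylation element (CPE) in 3′ UTRs, close to the hexamer AATAAA that directs polyadenylation, and represses or activates translation of the bound mRNA.

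To show what CPEB1 could meet on these transcripts, stretches around a canonical CPE (TTTTAT or TTTTAAT) are printed for 5 members that were higher in CPEB1 IP than in IgG (Ddx21, Ddx54, Ddx3x, Ddx46 and Ddx5) and for 2 that were not (Dhx36 and Dhx9). Each is the CPE nearest to the 3′ end in the GENCODE M21 transcript with the longest 3′ UTR of its gene, is read 5′ to 3′ on the gene's strand with T for U, and has the CPE in capitals.
Ddx21, mm10 chr10:62580348-62580377, minus strand: gcctgtTTTTATgttccagctgtctatgta
Ddx54, mm10 chr5:120627590-120627619, plus strand: attgagTTTTAATgtaataaactttactgc
Ddx3x, mm10 chrX:13293950-13293979, plus strand: ttctggTTTTATtaaaataaaaagttgaac
Ddx46, mm10 chr13:55681181-55681210, plus strand: tttgttTTTTAATgcaatatcaatatttcc
Ddx5, mm10 chr11:106780475-106780504, minus strand: tggaccTTTTATtttgtaaataattatgga
Dhx36, mm10 chr3:62468019-62468048, minus strand: ttactgTTTTATgaataaagctgctctaag
Dhx9, mm10 chr1:153455891-153455920, minus strand: attttgTTTTATattgtgtaatgtaaaata
The next AATAAA began 1 base after the CPE in Dhx36, 2 bases after it in Ddx54 and 3 bases after it in Ddx3x, so the hexamer can be read in those stretches. The distance was 43 bases in Ddx46, 92 in Ddx21, 115 in Ddx5 and 128 in Dhx9. From the CPE to the end of the annotated 3′ UTR there were 990 bases in Ddx54. In the others there were 24 in Dhx36, 63 in Ddx46, 91 in Ddx3x, 115 in Ddx21, 138 in Ddx5 and 151 in Dhx9. A match of letters is a description of the sequence and not a measured binding site.

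The libraries held 1284716 to 4941653 counts on genes, fewest with IgG. IgG libraries also had the smallest share of their read total on genes, 39.1% to 39.5%, against 69.5% to 79.8% in the other 4 libraries. Muscle stem cell markers were present in every library: the 8 listed genes, among them Pax7, Myf5 and Myod1, summed to 9405 to 12447 CPM with none at 0. Sdc4 alone gave 5231 to 7133.5 CPM of that sum. Pax7, Calcr and Cdh15 were lower than input in both pull-downs. Pax7 had a mean of 341 CPM in input, 91.7 in CPEB1 IP and 86.8 with IgG. Myod1 was higher in both, at 1004, 2405 and 1920. By the test used below Vcam1 and Itga7 were lower with IgG alone, and Myf5 and Sdc4 were called in neither. Markers of other cell types were low in input, where the summed CPM was 108 to 111 for 5 endothelial genes, 90.5 to 92.9 for 5 fibro-adipogenic genes, 66.8 to 81.9 for 6 myofibre genes and 13.5 to 28.5 for 6 hematopoietic genes. In the 4 pull-down libraries the sums were 114 to 161 for endothelial, 247 to 343 for fibro-adipogenic and 120.2 to 169 for myofibre genes. Each of these lists was above input in every pull-down library, the endothelial one by little in IgG 1. CPM here is the count scaled to library size after TMM normalization over the 6 libraries. A library is a pool of cells, so more transcript per cell and more cells with the transcript cannot be told apart.

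In input, the helicase transcripts were dominated by Ddx5, the coactivator and microRNA-processing helicase also called p68, which had an FPKM of 484 and 621 (fragments per kilobase of exon, scaled to library size, which allows levels of genes to be compared). Ddx3x, a helicase that helps translate mRNAs with structured leaders, followed at 69.1 and 90.4, and Ddx39b, the splicing and export helicase UAP56, at 54.8 and 70.5. The ranges of Ddx3x and Ddx39b overlapped, and those of Ddx5 and Ddx3x did not. Ddx21, a nucleolar helicase of ribosomal RNA synthesis, had 37.7 and 37.4. The places 5 to 10 were held by Ddx56 (26.6 and 20.4), Dhx15 (19.6 and 24.3), Ddx42 (mean 21.8), Ddx1 (17.7 and 23.8), Ddx39 (17.1 and 16.5) and Ddx27 (16.4 and 16.9), and each of Ddx56, Dhx15 and Ddx42 overlapped the next gene down. Dhx15 was the only Dhx gene among the 10 highest. Dhx genes had a median input FPKM of 4.16 over 17 genes and Ddx genes 11.1 over 36. At the other end, Ddx4, Ddx25 and Ddx43, which are known from germ cells, had a mean FPKM between 0.0361 and 0.0661, and they and Dhx58os (0 to 2 reads in a library) were too low to test in any comparison.

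**Figure D1:**
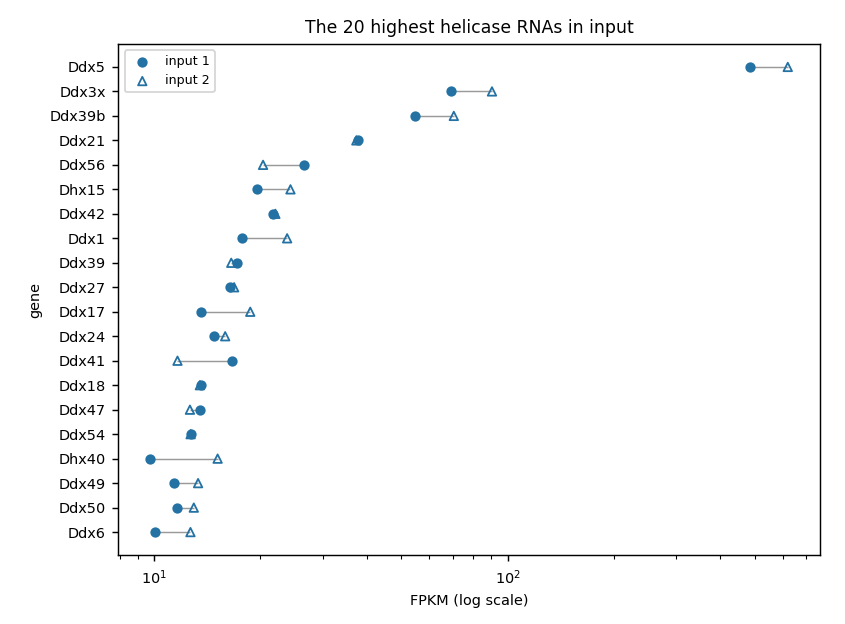
The 20 helicase genes with the highest mean FPKM in input, on a log axis, with input 1 as filled circles, input 2 as open triangles and a line joining them. Ddx5 stands alone at 484 and 621, and from Ddx56 down neighbouring genes mostly overlap.

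Against IgG, 15 of the 49 helicase genes tested were higher in CPEB1 IP and 5 were lower, with 29 not past the threshold (edgeR's quasi-likelihood test, Benjamini-Hochberg adjusted p under 0.05 over 12124 genes). Over all genes tested, 14.7% were higher and 18.7% lower. The median log2 fold change was 0.08 over the 49 and -0.01 over all genes. Ddx21 and Ddx54, both nucleolar, led the higher members with log2 fold changes of 1.66 and 1.53, and Ddx59, Ddx60 and the RNA sensor Ddx58 led the lower ones. Ddx59 and Ddx60 passed the filter on low counts through the IgG libraries alone, so the filter left only a lower direction open to them. Neither was called without that filter. The counts depended on the processing. With the authors' FPKM library totals as library sizes, which moved the median of all genes to 0.80, 33 members were higher and 0 lower. Over the 42045 genes left without a filter on low counts, DESeq2 gave 23 higher and 0 lower and edgeR 24 higher and 1 lower, so that DESeq2 differed in both tool and filter. RLE scaling with the filter kept gave 15 higher and 5 lower. Under all 11 alternatives 8 members remained higher, namely Ddx21, Ddx54, Ddx39, Ddx3x, Ddx24, Ddx5, Ddx17 and Ddx46, whereas 0 of the 5 lower calls remained under all of them. Without the second CPEB1 IP library, which is the deepest, 8 were higher and 0 lower, and without the first CPEB1 IP library or without the second IgG library 1 was lower.

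**Figure D2:**
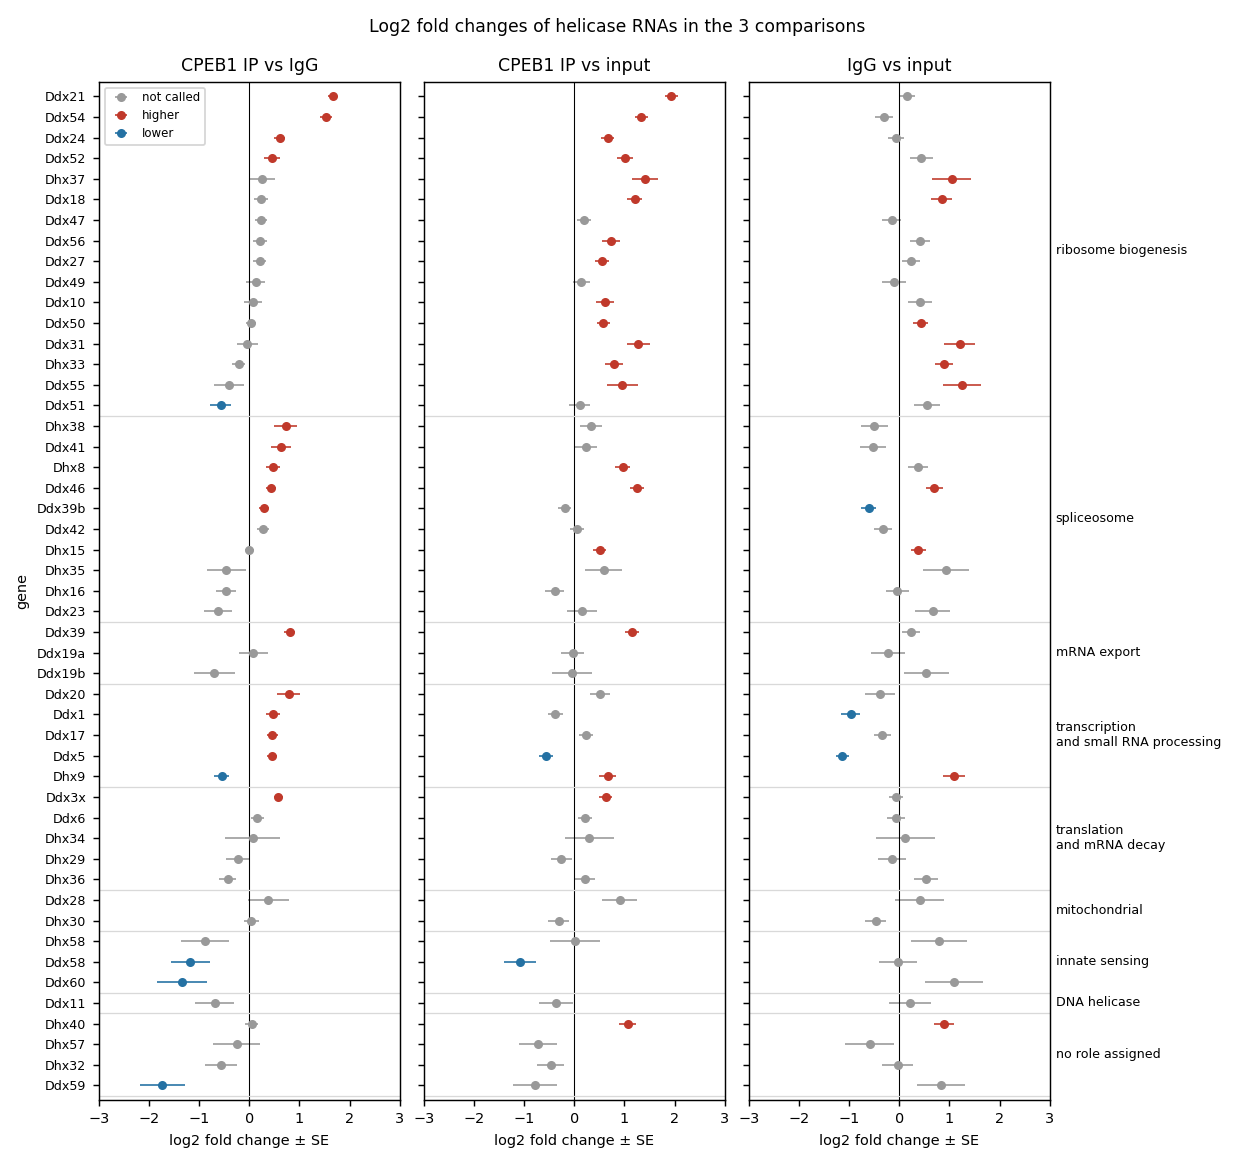
Log2 fold change with its standard error for the 49 tested helicase genes, sorted by role and then by the change over IgG, with CPEB1 IP against IgG on the left, CPEB1 IP against input in the middle and IgG against input on the right. Red marks genes called higher, blue genes called lower and grey those not called, and Ddx21 and Ddx54 stand out at 1.66 and 1.53 over IgG while neither is called in IgG against input.

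The 16 helicases of ribosome biogenesis were all tested, and over IgG 4 were higher, 1 lower and 11 not called, with a median log2 fold change of 0.21. Of all genes tested, 14.7% were higher and 18.7% lower. Ddx21 (chr10:62580251-62602281, mm10) had 982 and 973 CPM in CPEB1 IP, 291 and 298 with IgG, and 275 and 253 in input. Both CPEB1 IP libraries stood far above the 4 others, and IgG and input lay close together. The log2 fold change over IgG was 1.66 ± 0.09 (SE, n = 2 libraries a group; edgeR, Benjamini-Hochberg adjusted p = 9.83e-11).

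Ddx54 (chr5:120612739-120628592), which works on the large ribosomal subunit, had 248 and 269 CPM in CPEB1 IP, 89.6 and 82.3 with IgG, and 110 and 102 in input. CPEB1 IP lay above the rest with no overlap, input lay above IgG, and the log2 fold change over IgG was 1.53 ± 0.12 (edgeR, Benjamini-Hochberg adjusted p = 1.71e-08). The Ddx54 span holds 2 annotated genes on the opposite strand, Cfap73 and Gm43579, and the strand setting of the counting is not given in the sources used here. Ddx24, another nucleolar helicase, had 249 and 276 CPM in CPEB1 IP, 163 and 168 with IgG, and 172 and 171 in input, a log2 fold change over IgG of 0.61 ± 0.11 (edgeR, Benjamini-Hochberg adjusted p = 0.000253). Ddx52, a small-subunit helicase, rose by 0.45 ± 0.16, a call that was lost in 4 of the 11 alternatives. Ddx50, the close relative of Ddx21 that lies beside it on chromosome 10, had 239 and 247 CPM in CPEB1 IP and 232 and 221 with IgG, a log2 fold change of 0.03 that did not pass the test. Ddx51 was lower by TMM, with 41.2 and 32.0 CPM in CPEB1 IP and 44.1 and 57.5 with IgG, and its sign turned with the FPKM totals.

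Of the 10 helicases of the spliceosome, 5 were higher over IgG, 0 lower and 5 not called, where 14.7% of all genes tested, and 39.1% of those above 10 FPKM in input, were higher. They act in turn on the assembling and catalytic spliceosome. Ddx46 (Prp5 in yeast), which acts at branch site recognition, had 240 and 249 CPM in CPEB1 IP, 166 and 180 with IgG, and 97.0 and 116 in input. Its levels were highest in CPEB1 IP, lower in IgG and lowest in input with no overlap, and the log2 fold change over IgG was 0.43 ± 0.11 (edgeR, Benjamini-Hochberg adjusted p = 0.00374).

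Dhx8 (Prp22), which releases the spliced mRNA, showed the same order, with 116 and 118 CPM in CPEB1 IP, 79.8 and 81.6 with IgG, and 61.4 and 63.3 in input (log2 fold change over IgG 0.47 ± 0.13; edgeR, Benjamini-Hochberg adjusted p = 0.00995). That call was lost without the second CPEB1 IP library, where the adjusted p by edgeR with Benjamini-Hochberg adjustment was 0.101. Dhx38 (Prp16), which remodels the spliceosome for the second catalytic step, had 40.8 and 65.2 CPM in CPEB1 IP, 34.9 and 28.4 with IgG, and 41.1 and 48.2 in input. Its 2 CPEB1 IP libraries spanned the input values, and the log2 fold change over IgG of 0.72 ± 0.24 was not called without the second CPEB1 IP library or without the second IgG library. Ddx41 and Ddx39b were higher by 0.63 ± 0.20 and 0.30 ± 0.10, and both calls failed in part of the alternatives. Dhx15 (Prp43), which takes spent spliceosomes apart, had 357 and 335 CPM in CPEB1 IP and 327 and 332 with IgG, a log2 fold change of 0.00 ± 0.10. Ddx23 (Prp28), Dhx16 (Prp2), Dhx35 and Ddx42 were not called, between -0.63 and 0.27.

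Ddx39, a close relative of Ddx39b with a part in mRNA export, had 241 and 265 CPM in CPEB1 IP, 144 and 135 with IgG, and 125 and 111 in input. The CPEB1 IP libraries lay above all others, and the log2 fold change over IgG was 0.80 ± 0.11 (edgeR, Benjamini-Hochberg adjusted p = 2.79e-05). Adgre5 overlaps Ddx39 on the opposite strand. The neighbours Ddx19a and Ddx19b, near-identical export helicases of the nuclear pore whose reads the counting may have divided, were not called, with 18.2 to 21.5 CPM for Ddx19a and 8.74 to 28.1 for Ddx19b over the CPEB1 IP and IgG libraries.

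All 5 helicases grouped under transcription and small RNA processing were called over IgG, 4 higher and 1 lower, where 14.7% of all genes tested were higher and 18.7% lower. Ddx5, Ddx17 and Ddx1 were above 10 FPKM in input, a level at which 39.1% of all genes tested were higher. The calls of Ddx1, Ddx20 and Dhx9 were lost in part of the alternatives. Ddx5 had 3013 and 2597 CPM in CPEB1 IP, 1889 and 2045 with IgG, and 3944 and 4685 in input, so it was higher in CPEB1 IP than in IgG (0.45 ± 0.10; edgeR, Benjamini-Hochberg adjusted p = 0.00193) and highest in input. Its relative Ddx17 (p72) had 186 and 192 CPM in CPEB1 IP, 131 and 132 with IgG, and 147 and 187 in input, with a log2 fold change over IgG of 0.46 ± 0.11. Ddx1, a subunit of the tRNA ligase complex, followed the pattern of Ddx5 at 112 and 101, 67.6 and 77.9, and 127 and 158 CPM over the 3 groups in the same order, and was higher than IgG by 0.47 ± 0.15. Ddx20 (Gemin3), a member of the SMN complex that assembles spliceosomal snRNPs, was higher by 0.78 ± 0.24 with 43.3 and 49.8 CPM in CPEB1 IP against 32.7 and 19.7 with IgG. Dhx9 (RNA helicase A) went the other way with 72.5 and 61.1 CPM in CPEB1 IP, 90.4 and 94.0 with IgG, and 43.0 and 43.5 in input. Its lower call over IgG (-0.55 ± 0.15) turned to 0.26 with the FPKM totals and was not made by DESeq2.

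Among the 5 helicases of translation and mRNA decay only Ddx3x passed the test over IgG. Of all genes tested 14.7% were higher, and of those above 10 FPKM in input, as Ddx3x was, 39.1%. Ddx3x (chrX:13280970-13294052) had 860 and 841 CPM in CPEB1 IP, 532 and 557 with IgG, and 515 and 623 in input. The CPEB1 IP libraries were the highest, IgG and input overlapped, and the log2 fold change was 0.58 ± 0.09 (edgeR, Benjamini-Hochberg adjusted p = 8.09e-05). Its near-identical Y-linked copy was not a member, and how the counting treated reads shared by the pair is not given. Ddx6, which joins the decapping machinery and represses translation, had 148 and 130 CPM in CPEB1 IP, 118 and 118 with IgG, and 114 and 133 in input, a log2 fold change over IgG of 0.16 ± 0.13. Dhx36, which unwinds G-quadruplexes and carries the CPE nearest to AATAAA in the printed set, had 46.7 and 50.8 CPM in CPEB1 IP, 61.5 and 64.8 with IgG, and 35.3 and 52.0 in input. Its log2 fold change over IgG was -0.43 ± 0.17 (edgeR, Benjamini-Hochberg adjusted p = 0.0561), which turned to 0.38 with the FPKM totals. Dhx29 and Dhx34 were not called.

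The mitochondrial helicases Ddx28 and Dhx30 were not called over IgG. Of the 3 sensors of foreign RNA, 2 were lower. Ddx58 (RIG-I) had 8.75 and 7.02 CPM in CPEB1 IP, 13.7 and 19.7 with IgG, and 17.5 and 16.4 in input, and Ddx60, with 5 to 15 reads in a library, had 2.08 and 3.10 against 5.32 and 8.01 with IgG. Dhx58 (LGP2) did not pass, at a log2 fold change of -0.88 ± 0.48. Ddx59, the member with the most negative value, had 3.75 and 3.30 CPM in CPEB1 IP against 9.87 and 12.4 with IgG. These 3 called genes had a mean input FPKM of 1.77 (Ddx58), 0.267 (Ddx60) and 1.56 (Ddx59). Ddx59 and Ddx60 passed the filter on low counts through the IgG libraries alone. Markers of hematopoietic cells summed to 13.7 and 21.5 CPM in CPEB1 IP, 67.6 and 47.3 with IgG and 28.5 and 13.5 in input. In CPEB1 IP 1, 2 of the 6 markers were at 0, against 0 of 6 in each IgG library and 3 and 1 in the input libraries. The part of these markers in the lower calls was not tested.

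**Figure D3:**
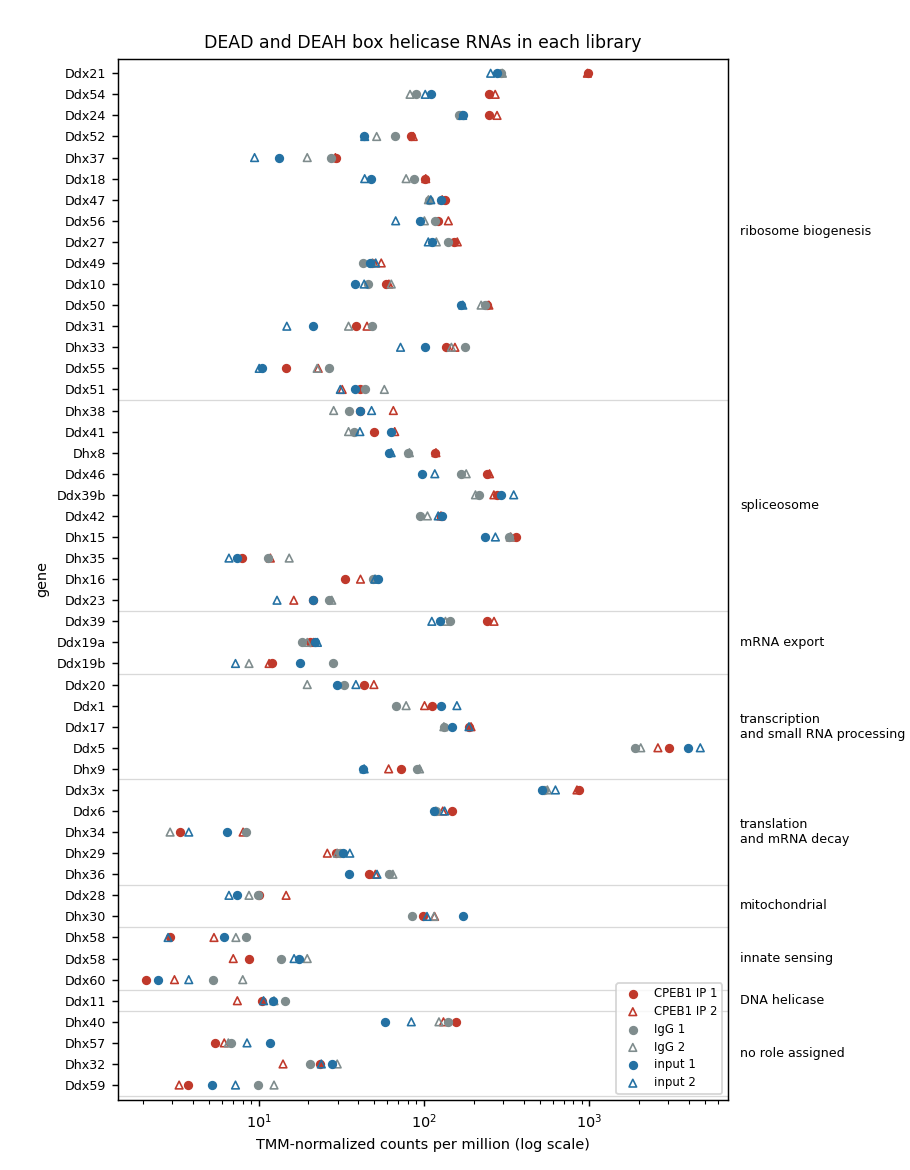
TMM-normalized CPM on a log axis for the 49 tested helicase genes in each of the 6 libraries, grouped by role, with replicate 1 as filled circles and replicate 2 as open triangles. CPEB1 IP (red) lies to the right of IgG (grey) and input (blue) for Ddx21, Ddx54, Ddx39 and Ddx3x, while Ddx5 is highest in input.

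Set against input, 20 of the 48 members tested were higher in CPEB1 IP and 2 were lower, where 17.0% of all genes tested were higher and 15.8% lower. The median log2 fold change was 0.32 over the members and 0.00 over all genes. Fibro-adipogenic markers summed to 343 and 325 CPM in CPEB1 IP against 90.5 and 92.9 in input, and myofibre markers to 139 and 169 against 81.9 and 66.8, and their part in the higher calls was not tested. This comparison shares the CPEB1 IP libraries with the one against IgG, so the calls are given for themselves and no overlap is drawn. With the FPKM totals the numbers were 14 higher and 4 lower, and without the second CPEB1 IP library 11 higher and 0 lower, and without the first input library 4 were lower. Under all 11 alternatives 10 remained higher, which were Ddx21, Ddx54, Ddx46, Ddx39, Ddx18, Ddx31, Ddx52, Dhx37, Dhx40 and Dhx8.

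Helicases of ribosome biogenesis accounted for 13 of the 20. Of all genes tested 17.0% were higher, and of those above 10 FPKM in input 24.7%. Over IgG only 4 of the 16 were higher, and in IgG against input 6 were, with medians of 0.21 and 0.42. In CPEB1 IP against input, only Ddx47, Ddx49 and Ddx51 of the 16 did not pass, at 0.20, 0.14 and 0.11, and the median was 0.77. Ddx21 was again the largest at 1.94 ± 0.13 (edgeR, Benjamini-Hochberg adjusted p = 7.89e-07). Dhx37, which frees the U3 snoRNA from the small-subunit precursor, had 29.2 and 29.1 CPM in CPEB1 IP, 27.3 and 19.7 with IgG, and 13.2 and 9.45 in input, a log2 fold change over input of 1.41 ± 0.26. CPEB1 IP and IgG lay close together for Dhx37, both above input. Ddx31 was alike, with 38.7 and 45.2 CPM in CPEB1 IP, 48.6 and 35.0 with IgG, and 21.2 and 14.8 in input, and a log2 fold change over input of 1.28 ± 0.24. Ddx54 was higher by 1.34 ± 0.14 and Ddx18 by 1.20 ± 0.16. Outside this group Ddx46 rose by 1.25 ± 0.14 and Ddx39 by 1.15 ± 0.14. The 2 lower members were Ddx58 (-1.08 ± 0.31) and Ddx5 (-0.57 ± 0.14; edgeR, Benjamini-Hochberg adjusted p = 0.0066). Both lower calls were lost without the second CPEB1 IP library, and Ddx58 was also not called by DESeq2.

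IgG against input measures what the control pull-down itself retained, and here 10 of 49 members were higher in IgG and 3 lower, beside 21.4% and 19.4% of all genes tested. The median was 0.23 over members and 0.03 over all genes. The same marker lists summed to 276 and 247 CPM (fibro-adipogenic) and to 135 and 120.2 (myofibre) with IgG, above input, and their part was not tested. Ddx55 (1.25 ± 0.38), Ddx31 (1.21 ± 0.30), Dhx9 (1.09 ± 0.21), Dhx37 (1.04 ± 0.38) and Dhx40 (0.89 ± 0.19) had the largest higher values, and 6 of the 16 ribosome biogenesis helicases were higher with 0 lower. Ddx5 (-1.13 ± 0.12; edgeR, Benjamini-Hochberg adjusted p = 1.92e-09), Ddx1 (-0.97 ± 0.19) and Ddx39b (-0.61 ± 0.15) were lower. The direction of the higher calls depended on the scaling, since with the FPKM totals, which set the median of all genes at -0.85, 0 members were higher and 27 lower. DESeq2 gave 2 higher and 3 lower, and without the low-count filter 6 were higher and 7 lower. Without the first IgG library 4 were higher, and without the second input library 5 were lower. The lower calls of Ddx5 and Ddx1 remained under all 11 alternatives. Neither Ddx21 (0.15) nor Ddx54 (-0.30) was called.

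Shares within the helicase counts need no scaling between libraries. Ddx5 supplied 49.9% and 53.5% of all Ddx and Dhx counts in input, but 33.3% and 29.7% in CPEB1 IP and 30.3% and 32.3% with IgG. Ddx21 made up 10.8% and 11.1% in CPEB1 IP, 4.67% and 4.70% with IgG, and 3.48% and 2.89% in input. Ddx54 made up 2.74% and 3.08% in CPEB1 IP against 1.16% to 1.44% in the 4 other libraries. Ddx21 and Ddx54 thus held a larger share of the helicase reads in CPEB1 IP than in either IgG or input, with no overlap, while the drop of the Ddx5 share from input was present in both pull-downs.

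Changes over IgG were lower in Dhx genes than in Ddx genes. Of 33 Ddx genes tested, 13 were higher and 4 lower with a median log2 fold change of 0.23, and of 16 Dhx genes 2 were higher (Dhx38 and Dhx8) and 1 lower (Dhx9) with a median of -0.22. The shares called higher were 39.4% for Ddx and 12.5% for Dhx, beside 14.7% of all genes tested and 39.1% of those above 10 FPKM in input. The shares called lower were 12.1% and 6.25%, beside 18.7% of all genes tested. The median of Dhx less that of Ddx was -0.45, and between -0.50 and -0.39 with a library left out. Summed over genes and without Ddx5, the ratio of Dhx to Ddx was 0.238 and 0.236 in CPEB1 IP, 0.365 and 0.365 with IgG, and 0.297 and 0.276 in input. Without Ddx5 the ratio was lowest in CPEB1 IP and highest in IgG. With Ddx5 kept it was lowest in input, at 0.129 and 0.112, against 0.147 and 0.155 in CPEB1 IP and 0.229 and 0.221 with IgG, so the order of CPEB1 IP and input turned on that gene. Without Ddx21 as well, it was 0.297 and 0.293 in CPEB1 IP, 0.402 and 0.404 with IgG, and 0.326 and 0.2995 in input, which left the second input library next to the CPEB1 IP libraries. Against input, Ddx genes had 14 higher, 2 lower and a median of 0.37, and Dhx genes 6 higher, 0 lower and a median of 0.32, a difference of -0.05 whose sign changed with the library left out. Of all genes tested in that comparison, 17.0% were higher and 15.8% lower. In IgG against input the medians were 0.22 for Ddx and 0.38 for Dhx. No test was run on these family differences, which are descriptions.

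**Figure D4:**
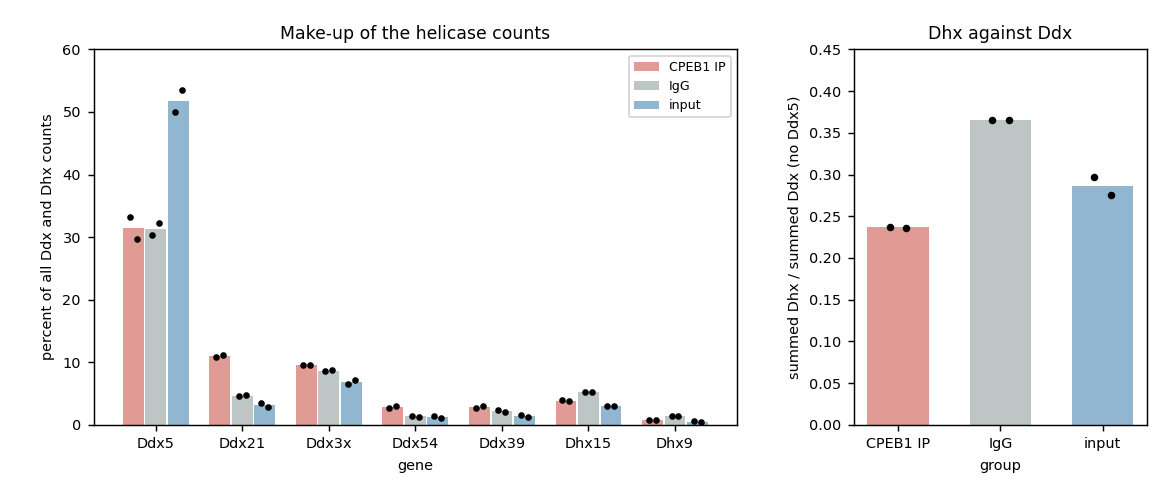
Left, the percentage of all Ddx and Dhx counts taken by 7 genes in CPEB1 IP, IgG and input, and right, the summed CPM of Dhx genes divided by that of Ddx genes without Ddx5, with bars for the mean of 2 libraries and points for each library. Ddx21 takes 2.89% to 4.70% in the other groups and 10.8% and 11.1% in CPEB1 IP, and the Dhx to Ddx ratio without Ddx5 is lowest in CPEB1 IP, whereas with Ddx5 it is lowest in input.

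The change over IgG went with the input level. Across the 49 members Pearson's r between the log2 fold change over IgG and the log2 of input FPKM plus 1 was 0.622 (Spearman's rho 0.695), and across all 12124 genes 0.575 (rho 0.634). These are correlations across genes, which share libraries and depth and are not independent replicates. Of the 21 members above 10 FPKM in input, 11 were higher and 0 lower, where 39.1% of all tested genes at that level were higher and 4.79% lower. Between 1 and 10 FPKM 4 of 24 members were higher and 4 lower, against 5.12% and 13.4% of all genes. Below 1 FPKM 1236 of 2060 genes were lower, among them 1 of 4 members, Ddx60, which passed the filter on low counts through IgG alone. Other genes near 0 in input could pass in the same way, which left only a lower direction open to them. How many did so was not counted, and they enter the correlation over all 12124 genes, so neither value at low level is support for a relation with level. The Ddx and Dhx families differed in level too: 19 Ddx genes but 2 Dhx genes of those tested were above 10 FPKM. Between 1 and 10 FPKM the median over IgG was -0.40 for 13 Ddx genes and -0.22 for 11 Dhx genes, so the order of the families was not that of the full set. Above 10 FPKM it was 0.432 for 19 Ddx genes and 0.025 for 2 Dhx genes, in the order of the full set. Below 1 FPKM it was -1.35 for 1 Ddx gene and -0.46 for 3 Dhx genes. For IgG against input r was -0.545 over 49 members and -0.502 over 12980 genes, and for CPEB1 IP against input r was 0.109 over 48 members and -0.042 over all genes. In both of these the input libraries give the level and are also the denominator of the fold change. A negative r can arise from that alone, so nothing is drawn from its sign. The comparisons share libraries.

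**Figure D5:**
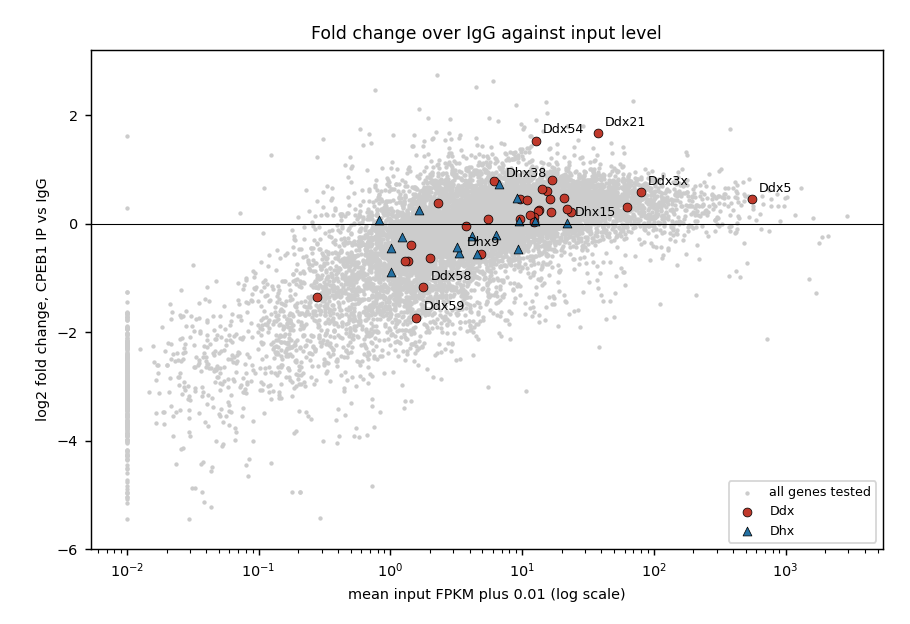
Log2 fold change of CPEB1 IP against IgG, plotted against mean input FPKM plus 0.01 on a log axis, with all 12124 tested genes in grey, Ddx genes as red circles and Dhx genes as blue triangles (8 genes below -6 are not shown). Values climb with the input level in the grey cloud and in both families, and Ddx21 and Ddx54 lie above most genes of their level. Genes near 0 in input could pass the filter on low counts through IgG alone, which left only negative values open to them.

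The study's rule for CPEB1 targets asks for an FPKM ratio over IgG above 2 in each experiment together with a significant count test. With FPKM plus 1 and edgeR's test 11 members met it (Ddx1, Ddx3x, Ddx5, Ddx17, Ddx21, Ddx24, Ddx39, Ddx39b, Ddx46, Ddx54 and Dhx8), where 12.1% of all genes tested did. Dhx8 was the only Dhx gene among them. The ratios were 5.26 and 5.44 for Ddx21, 3.96 and 4.91 for Ddx54, 2.57 and 3.18 for Ddx39, and 2.57 and 2.57 for Ddx3x. For the 7 others both ratios lay between 2.03 and 2.64. Just outside the rule, Ddx42 had 2.03 and 1.98, and Ddx41 had 1.94 and 2.91. When FPKM was recomputed with TMM library sizes, 2 members met the rule, which were Ddx21 and Ddx54.

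A canonical CPE lay in an annotated 3′ UTR of 30 of the 52 members that have one (57.7%), 21 of 36 Ddx genes and 9 of 16 Dhx genes. Only the transcript strand was searched, and TTTTAAT is also part of longer variants of the element. Of the 49 members tested over IgG 55.1% had a CPE, against 66.9% of the 10838 tested genes with a 3′ UTR, but helicase 3′ UTRs were shorter, with a median longest 3′ UTR of 928 bases against 1285. Among 3′ UTRs under 500 bases the share was 38.1% of 21 members and 28.1% of all genes, from 500 to 1500 bases 43.8% of 16 and 60.9%, and over 1500 bases 12 of 12 members and 91.0%. Of the 15 members higher over IgG 9 had a CPE, of the 5 lower 3, and of the 29 others 15. The median log2 fold change over IgG was 0.16 for 27 members with a CPE and 0.08 for 22 without, while over all genes it was -0.02 with and 0.14 without. Ddx24, Ddx41, Ddx39b, Ddx20, Ddx52 and Dhx8 were higher over IgG with no canonical CPE in an annotated 3′ UTR.

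Other helicases and cofactors from lists of textbook partners were counted in the same way. Of 19 other RNA helicases tested over IgG, 3 were higher (Eif4a1, Eif4a3 and Snrnp200) and 3 lower (Aqr, Ascc3 and Tdrd9), with a median of -0.20, shares near the 14.7% and 18.7% of all genes tested. For CPEB1 IP against input 4 of 18 were higher and 3 lower, beside 17.0% and 15.8% of all genes, and for IgG against input 4 of 19 were higher and 5 lower, beside 21.4% and 19.4%. The same background holds for the partner lists that follow. Eif4a3, the DEAD box core of the exon junction complex whose symbol falls outside the rule, had 789 and 756 CPM in CPEB1 IP, 156 and 154 with IgG, and 167 and 228 in input. Its log2 fold change over IgG of 2.25 ± 0.10 (edgeR, Benjamini-Hochberg adjusted p = 7.95e-12) was larger than that of any of the 49 Ddx and Dhx genes tested. The translation initiation helicase Eif4a1 was higher by 0.70 ± 0.09, and its near copy Eif4a2 had -0.26 ± 0.10 (edgeR, Benjamini-Hochberg adjusted p = 0.0579), which turned positive by DESeq2. Aqr, a helicase of the intron-binding complex, was lower over IgG by TMM (-0.60 ± 0.18) and turned to 0.21 with the FPKM totals. Tdrd9, a germ cell helicase, was at 0 in both input libraries, at 0.417 and 0.619 CPM in CPEB1 IP and at 9.87 and 7.28 with IgG, so no fold over input is given. Both over IgG and in IgG against input, Tdrd9 passed the filter on low counts through the IgG libraries alone. Only a lower direction was open to it over IgG, and only a higher one in IgG against input, where it is among the 4 counted as higher. Upf1, the helicase of nonsense-mediated decay, was higher than input in CPEB1 IP (0.93 ± 0.24) and in IgG (1.32 ± 0.28), and the exosome cofactor Skiv2l was lower in both (-0.75 ± 0.19 and -1.30 ± 0.24). Helz2 was also lower than input in both CPEB1 IP (-0.82 ± 0.16) and IgG (-0.85 ± 0.20), as was the RNA sensor Ifih1 (-0.74 ± 0.23 and -1.22 ± 0.35).

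Of 19 G-patch proteins tested over IgG, some of which switch on Dhx15 and related helicases, 3 were higher and 2 lower. Tfip11, the spliceosome disassembly partner of Dhx15, was higher by 0.79 ± 0.24, Gpkow, a partner of Dhx16, by 0.49 ± 0.18 and Rbm17 by 0.41 ± 0.13, while Gpatch2 and Son had -0.80 ± 0.31 and -0.32 ± 0.09, signs that turned with the FPKM totals. Against input 5 of 19 were higher and 2 lower in CPEB1 IP, with Gpatch4 at 0.96 ± 0.18, Rbm17 at 0.81 ± 0.14, Rbm10, Aggf1 and Gpatch8 between 0.52 and 0.63, Gpkow at -0.92 ± 0.15 and Zgpat at -0.60 ± 0.21. In IgG against input 1 of 20 was higher and 1 lower, Gpatch4 (0.69 ± 0.25) and Gpkow (-1.52 ± 0.20), and the sign of Gpatch4 turned with the FPKM totals.

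Of 15 export factors that work with Ddx39b or the nuclear pore helicases, 2 were higher over IgG and 1 lower. Thoc3 (0.65 ± 0.15) and Thoc1 (-0.68 ± 0.16), subunits of the same THO complex, had opposite signs by TMM, and with the FPKM totals Thoc1 turned to 0.12. Sarnp was higher by 0.55 ± 0.16. Against input 5 of 16 were higher and 2 lower in CPEB1 IP, with Nxt1 at 1.37 ± 0.26, Thoc3 at 1.17 ± 0.16, Alyref, Sarnp and Thoc7 between 0.62 and 1.03, Zc3h11a at -0.77 ± 0.18 and Gle1 at -0.64 ± 0.18. In IgG against input 4 of 16 were higher and 1 lower, led by Nxt1 (1.07 ± 0.36) and Alyref (0.96 ± 0.28) with Thoc1 and Thoc7 next, and with Zc3h11a at -0.52 ± 0.21.

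Of 12 partners of Ddx6 in decapping and repression, 0 were higher over IgG and 4 lower, with Lsm14b at -1.41 ± 0.52 and the exonuclease Xrn1 at -0.86 ± 0.23, Dcp1a at -0.56 and Pan3 at -0.47. Lsm14b passed the filter on low counts through the IgG libraries alone. Against input 3 of 12 were higher and 1 lower in CPEB1 IP, with Edc3 at 0.84 ± 0.26, Eif4enif1 at 0.57 ± 0.18, Pan3 at 0.56 and Xrn1 at -0.56 ± 0.20. In IgG against input Pan3 was higher (0.90 ± 0.19) and Edc4 lower (-0.58 ± 0.21).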

How the data were processed

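RIP-seq of SCs gave 6 libraries, 2 each for CPEB1 IP, IgG and input, grouped by the sample labels. The authors mapped reads to mm10 with HISAT and counted them on genes with featureCounts, and the submitters' processing notes also name StringTie. They deposited raw counts, the summed exon length of each gene in bases, and FPKM that the authors computed from the count, the length and a library total above the counts on genes. Annotation release, strand setting and multimapper rule are not given in the sources used here. Counts on genes were 1284716 to 4941653.

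Counts of 2 groups at a time were tested in R 4.3.3 with edgeR 4.0.16 (filterByExpr, TMM, quasi-likelihood test, Benjamini-Hochberg adjustment over all genes, threshold 0.05). The SE is the size of the log2 fold change divided by the square root of F. Tested on simulated data for CPEB1 IP against IgG, the test recovered 62 of 100 genes with a simulated log2 difference of 1 and 98 of 100 with a difference of 2, and called 9 unchanged genes. The simulation gave all genes a common dispersion and left most genes unchanged between the groups. The deposited groups differ more widely in composition, so these figures need not hold for them. Alternatives were DESeq2 1.42.0, RLE, counts on genes or FPKM totals as library sizes, no filter, a replicate block, all libraries in 1 fit, and leaving out each library. Python 3.11.15 with pandas 2.3.3 and matplotlib 3.10.9 did the rest. CPEs were searched in 3′ UTRs of GENCODE M21, which matched all 53 members in start and end.

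Members, role groups and partner lists were chosen with earlier results of these data known. Named are the 5 largest calls in each direction and comparison, every called Dhx gene over IgG, members meeting the study's FPKM rule, the 10 highest in input, 8 well-studied members, Eif4a1, Eif4a2, Eif4a3 and up to 2 partners a list and direction; other called members are named as they were counted.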

Additional observations from a re-analysis of the deposited data

How the results depend on the processing

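With 2 libraries a group and 1284716 to 1359052 counts in IgG, low members and small changes are the least certain. Among values of single genes under an alternative, 946 kept their sign and side of the threshold, 220 lost and 23 gained the call, and 29 turned sign. Over IgG, 33 members were higher and 0 lower with FPKM library totals, 24 and 1 without the filter, and 23 and 0 by DESeq2. Against input in CPEB1 IP, 4 were lower with FPKM totals and 1 by DESeq2. In IgG against input, 0 were higher and 27 lower with FPKM totals, 6 higher and 7 lower without the filter, and 2 higher by DESeq2. Leaving out 1 library gave 8 to 14 higher and 0 to 4 lower over IgG, 11 to 24 and 0 to 4 for CPEB1 IP against input, and 4 to 14 and 2 to 5 for IgG against input. The Dhx less Ddx median then ranged from -0.497 to -0.391, from -0.328 to 0.10 and from 0.039 to 0.273. The FPKM rule was met by 5 members with a pseudocount of 5, 2 with TMM sizes, and 11 to 15 when the ratio was asked in 1 experiment alone. The 9 published CPE variants gave 36 members in place of 30. With each input library alone, 9 of the 10 highest members were the same.

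No shared deviation was seen in libraries with the same replicate number: the correlation of deviations was -0.011 between both pull-downs, -0.021 between the CPEB1 pull-down and input and 0.032 between the control pull-down and input. The study set CPEB1 IP against the IgG of the same experiment, and these values do not show that the libraries were unpaired. With the replicate block, 15 members were higher and 5 lower over IgG, 20 and 2 against input in CPEB1 IP, and 11 and 4 for IgG against input.

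Signs turned with FPKM totals over IgG for Aqr (0.21), Ddx51 (0.24), Dhx36 (0.38), Dhx9 (0.26), Eif4a2 (0.55), Gpatch2 (0.002), Son (0.49) and Thoc1 (0.12), and in IgG against input for Ddx18 (-0.029), Ddx46 (-0.185), Ddx50 (-0.455), Dhx15 (-0.50), Dhx36 (-0.35), Dhx8 (-0.51), Eif4a2 (-0.81) and Gpatch4 (-0.19). With counts on genes they turned over IgG for Dhx15 (-0.061), and in IgG against input for Ddx3x (0.041) and Ddx6 (0.034). Without the filter Eif4a2 (0.14) and Son (0.081) turned over IgG, and Eif4a2 (-0.20) in IgG against input. By DESeq2 Eif4a2 turned to 0.027 over IgG and to -0.071 in IgG against input. Leaving out 1 library spread Dhx15 over IgG from -0.005 to 0.076, Dhx36 in CPEB1 IP against input from -0.049 to 0.513, and, in IgG against input, Ddx3x from -0.173 to 0.057, Ddx6 from -0.154 to 0.02 and Eif4a2 from -0.088 to 0.179. The cause was not tested.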
